A study of Mus musculus with 41 samples.

Results

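The 8 genes described are the Toll-like receptor genes Tlr2, Tlr3, Tlr4, Tlr7, Tlr9, Tlr11 and Tlr12 and the adaptor gene Myd88, taken by name from the 19221 genes of a count matrix of 58067 single cells. The cells came from the small intestine of female BALB/cJ mice aged 10 weeks and were captured in droplets for sequencing of transcript 3′ ends. The samples were the lamina propria, the connective tissue under the gut epithelium, and Peyer's patches, its lymphoid follicles. Food allergy mice had an inflammatory reaction to ovalbumin, and control mice were untreated wild type. The Peyer's patch library titles carry WT, for wild type, in both conditions. The lamina propria titles give no genotype. The matrix held 27344 cells from food allergy libraries and 30723 cells from control libraries. The lamina propria gave 3 food allergy libraries and 3 control libraries labelled nonTB, and 1 food allergy and 1 control library labelled IgDLow. The labels define neither of these names. Peyer's patches gave 9 food allergy libraries and 10 control libraries, from 5 dates. The library titles of dates 1 and 2 end in the location letters D, I or J. The food allergy library D of date 1 had no cells in the matrix. Food allergy at date 1 was thus read from I and J only, and control from D, I and J. Nothing in the labels says which libraries came from separate animals, so a p-value here speaks only to the scatter among libraries, part of which could be technical.

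Toll-like receptors are germline-encoded sensors of microbial molecules, each carried by a limited set of cell types. Tlr2 and Tlr4 sit at the cell surface and bind bacterial lipoproteins and lipopolysaccharide, while Tlr3, Tlr7 and Tlr9 sit in endosomes and bind double-stranded RNA, single-stranded RNA and CpG DNA. Tlr11 and Tlr12 are endosomal receptors of mice that bind profilin of apicomplexan parasites. Myd88 carries the signal of every one of these receptors except Tlr3, which uses the adaptor Ticam1, and it also serves the receptors of the interleukin-1 family. In plasmacytoid dendritic cells, which are specialised in type I interferon, the Tlr7 and Tlr9 signal runs through Myd88 to the transcription factor Irf7.

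The genes lie apart in the mouse genome. In mm10 with GENCODE M21, Tlr7 spans chrX:167304929-167330558 on the minus strand and Tlr3 spans chr8:45395665-45411080 on the minus strand. Tlr11 spans chr14:50357914-50363663 on the plus strand and Tlr12 spans chr4:128615443-128618619 on the minus strand. Tlr2 spans chr3:83836272-83841767 on the minus strand and Tlr4 spans chr4:66827584-66930284 on the plus strand. Tlr9 spans chr9:106222598-106226883 on the plus strand, and Myd88 spans chr9:119335934-119341411 on the minus strand. All 8 are annotated as protein coding. The promoters of Tlr3, Tlr11 and Tlr12 are shown because these 3 receptors were each detected in cDC1, the cross-presenting dendritic cells. Each window runs from 250 bases before to 50 bases after the start given by RefSeq for GRCm38.p6, at chr8:45410331-45410630 (minus) for Tlr3, chr14:50357664-50357963 (plus) for Tlr11 and chr4:128618570-128618869 (minus) for Tlr12. Capitals mark matches to the searched motifs.
Tlr3: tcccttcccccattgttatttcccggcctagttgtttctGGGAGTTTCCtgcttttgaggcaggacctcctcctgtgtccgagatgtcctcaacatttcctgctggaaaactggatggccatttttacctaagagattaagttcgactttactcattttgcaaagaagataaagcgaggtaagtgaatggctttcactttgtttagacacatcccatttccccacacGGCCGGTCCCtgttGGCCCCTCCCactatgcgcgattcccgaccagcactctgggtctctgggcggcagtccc
Tlr11: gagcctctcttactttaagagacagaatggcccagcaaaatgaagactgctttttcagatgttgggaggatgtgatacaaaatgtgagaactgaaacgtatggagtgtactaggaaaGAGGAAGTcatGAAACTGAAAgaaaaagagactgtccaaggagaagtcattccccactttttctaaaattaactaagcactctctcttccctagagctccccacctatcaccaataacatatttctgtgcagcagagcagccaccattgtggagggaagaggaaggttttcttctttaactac
Tlr12: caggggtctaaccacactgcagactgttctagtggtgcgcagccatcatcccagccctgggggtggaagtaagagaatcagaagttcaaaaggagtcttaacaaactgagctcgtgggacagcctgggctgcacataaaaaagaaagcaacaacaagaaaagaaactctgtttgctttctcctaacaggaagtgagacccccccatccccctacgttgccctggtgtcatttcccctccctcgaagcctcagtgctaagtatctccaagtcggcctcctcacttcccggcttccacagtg
The capitals in Tlr3 are 3 matches to the NF-kB letters, GGGA and CC set 4 free bases apart, on either strand. Those in Tlr11 are the PU.1 core GAGGAAGT, which starts 133 bases before the gene start, followed by the interferon-stimulated response element core, GAAA and GAAA with 2 free bases between, which starts 122 bases before it. The Tlr12 window held none of the 5 motifs searched on both strands, which also included an ETS-IRF composite (GGAA and GAAA, 2 free bases between) and an AP-1-IRF composite (TTTC and TGA, 4 free bases between). Of 32851 RefSeq promoters of the same length, the NF-kB letters were in 20.7%, the PU.1 core in 3.20%, the response element core in 3.44%, the ETS-IRF composite in 2.72% and the AP-1-IRF composite in 4.56%. The response element core was also in the Myd88 window, 40 bases before the start, and the NF-kB letters were also in the Tlr2 window. The Tlr9 window held the AP-1-IRF composite and the PU.1 core. Tlr4 and Tlr7 had no window and were not searched. The Tlr3 and Myd88 windows, set by RefSeq starts, lie inside the GENCODE gene spans. A match describes letters in a window, not a bound site.

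Cells were put in classes by clustering without the 8 genes or their pathway genes, and each cluster was named after marker genes, so every class name below means cells like that type. Levels are counts of unique molecular identifiers (UMIs) of a gene scaled to the class's total UMIs, in the usual unit CPM. They were taken per library in the lamina propria and per date and condition in Peyer's patches, wherever at least 10 cells of the class were present. Libraries held 379 to 3891 cells, 1115608 to 18742802 UMIs in all, and median depths per cell between 1829 and 3975 UMIs. The classes carried their defining markers: Siglech was at 2157 CPM in lamina propria plasmacytoid dendritic cells (pDC), Xcr1 at 252 CPM in type 1 conventional dendritic cells (cDC1), C1qa at 4269 CPM in macrophages, S100a8 at 39950 CPM in neutrophils and Cpa3 at 11033 CPM in mast cells. Cd209a was at 836 CPM in cDC2, 459 CPM in pDC and 145 CPM in macrophages. In a gate that took cells 1 by 1 on their markers, 97.7% of cluster pDC and 71.9% of cluster cDC1 passed as that class, but only 10.9% of cDC2 and 0.527% of germinal centre B cells did. There were 4300 pDC, 1072 cDC1, 448 type 2 conventional dendritic cells (cDC2), 364 mature dendritic cells, 724 macrophages, 343 monocytes, 276 neutrophils, 1255 mast cells, 4590 B cells and 3602 germinal centre B cells over all libraries. Dendritic cells taken as 1 class, with 858 cells that fitted no subclass, made 2742 cells.

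All 8 genes were detected, and 7 of them in few cells. Over the whole matrix, Myd88 had 6687 UMIs in 10.3% of cells, Tlr7 had 2508 UMIs in 3.26%, Tlr2 had 1274 UMIs in 1.57% and Tlr12 had 977 UMIs in 1.44%. Tlr3 had 879 UMIs in 0.958% of cells, Tlr11 had 383 UMIs in 0.518%, Tlr4 had 317 UMIs in 0.541% and Tlr9 had 129 UMIs in 0.220%. Tlr2, Tlr3, Tlr7 and Tlr11 had their highest levels in 1 to 3 myeloid or dendritic classes, Tlr12 was spread over more, and Myd88 was read in nearly every class.

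**Figure D1:**
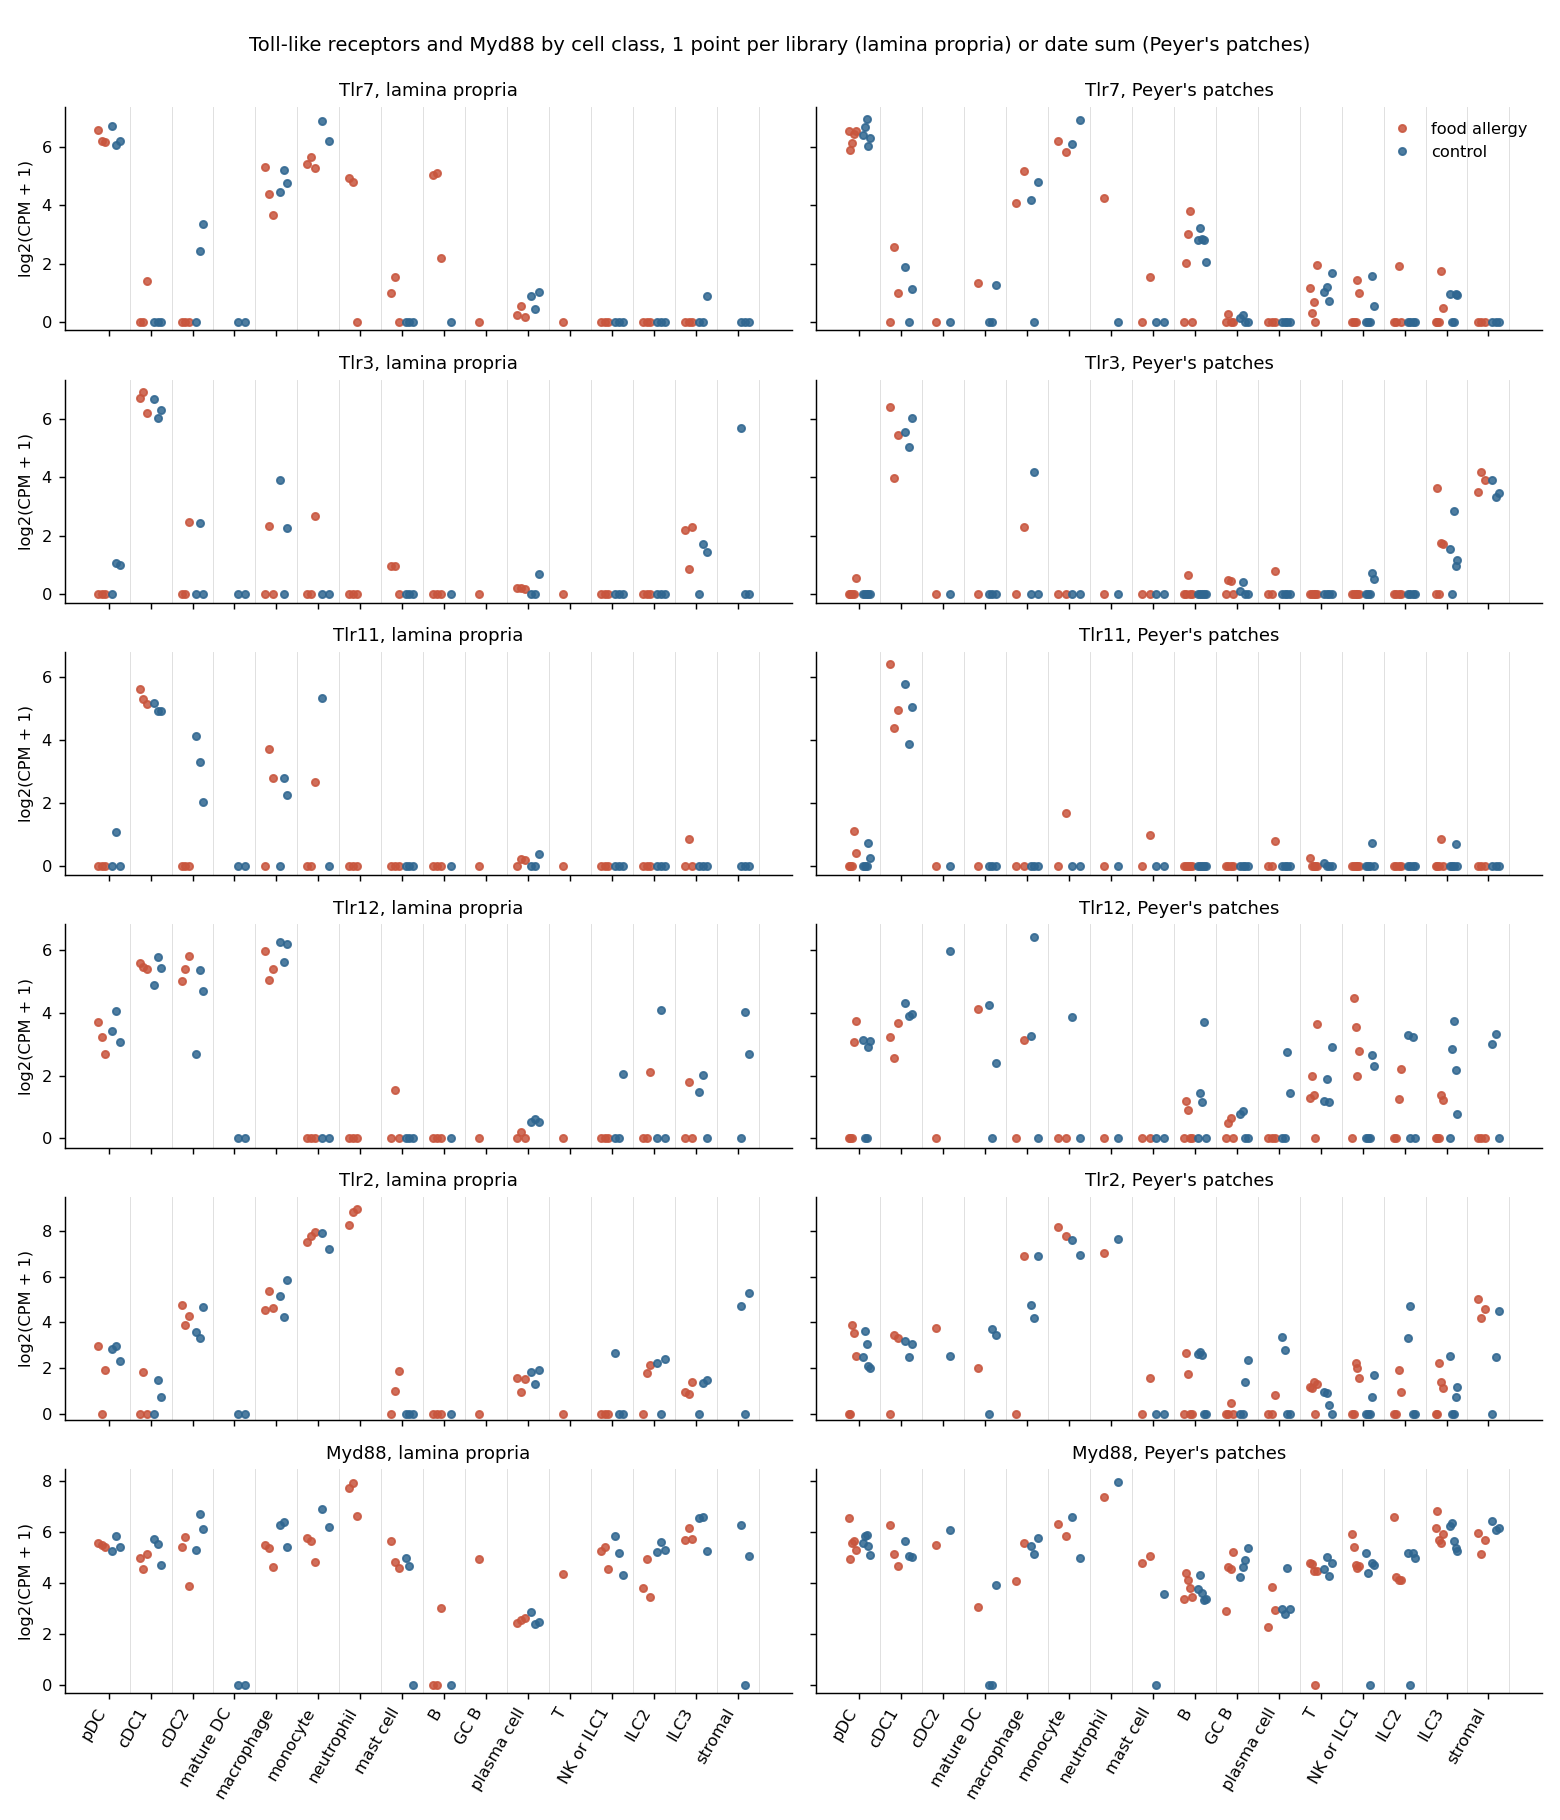
Levels of 6 of the genes as log2(CPM + 1) in each cell class, lamina propria on the left and Peyer's patches on the right; each point is 1 library or 1 sum per date and condition, with food allergy in red and control in blue. Tlr7 points stand at 58.9 CPM or more in every pDC sample of both tissues, and within each tissue the highest Tlr11 points, up to 48.6 CPM in the lamina propria and 84.6 CPM in Peyer's patches, are those of cDC1.

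Tlr7, the receptor for single-stranded RNA, was highest in pDC and monocytes. In lamina propria pDC it was at 96.3, 73.6 and 71.6 CPM in food allergy libraries 1 to 3, against 104, 67.0 and 72.4 CPM in control libraries 1 to 3. The ranges of the conditions overlapped, and library 1 was the highest of each. The mean was 80.9 ± 15.5 CPM (SD, n = 6, from 418 UMIs). In Peyer's patch pDC the 10 samples ran from 58.9 to 124 CPM around a mean of 85.6 ± 19.2 CPM (SD, n = 10, from 1388 UMIs). Lamina propria monocytes had 42.4, 49.4 and 37.9 CPM in food allergy libraries, against 120 and 72.7 CPM in the control libraries with enough cells. Monocytes and pDC overlapped, with pDC higher in 3 of 5 lamina propria libraries and in 2 of 4 Peyer's patch samples. Macrophages averaged less, with their highest lamina propria library (39 CPM) just above the lowest monocyte library, at 25.7 ± 10.3 CPM in the lamina propria (SD, n = 6) and 19.1 ± 13.1 CPM in Peyer's patches (SD, n = 5). Tlr7 in Peyer's patch B cells was 5.28 ± 3.93 CPM (SD, n = 10) from 86 UMIs, and in cDC1 it was 1.64 CPM.

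At the level of single cells, 354 of 1522 lamina propria pDC (23.3%, exact 95% interval 21.2 to 25.5%) and 967 of 2367 Peyer's patch pDC (40.9%, 38.9 to 42.9%) had a Tlr7 UMI. The median depth was 3188 UMIs per cell in the first and 6608 in the second. With every cell thinned to 1000 UMIs, the shares were 8.35% in the lamina propria and 7.64% in Peyer's patches. Peyer's patch T cells, the class taken to lack the gene, had a Tlr7 UMI in 39 of 13092 cells (0.298%) at a median of 2960 UMIs. These intervals cover counting error only.

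The contrast of pDC with cDC2 asked how the 2 dendritic lineages differ. In the lamina propria, Tlr7 in pDC (80.9 ± 15.5 CPM) exceeded that in cDC2 (2.29 ± 3.85 CPM, n = 6 each) by a log2 fold change of 4.41 ± 0.44 (SE, edgeR adjusted p = 4.64e-08). The UMI ratio, scaled to the class totals, was 25.4 with a counting interval of 9.86 to 93.8. Peyer's patch pDC had 1010 Tlr7 UMIs and cDC2 had 0 in the 2 samples with both classes. Against a floor of 3 UMIs over the group, pDC were at least 10.8-fold higher (edgeR adjusted p = 1.38e-05). DESeq2 did not make that call in Peyer's patches (adjusted p = 0.480). Tlr7 passed the filter there only through pDC, so neither p-value adds support. Against B cells, Tlr7 in pDC was higher by 2.82 ± 0.75 log2 units in the lamina propria (edgeR adjusted p = 0.000957), where B cells had 3 UMIs, and the adjusted p was 0.228 without food allergy library 3. The Peyer's patch contrast of pDC over B gave 3.65 ± 0.22 (edgeR adjusted p = 8.77e-13), with 85.6 ± 19.2 CPM in pDC and 5.28 ± 3.93 CPM in B cells (n = 10 each).

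Across the 6 fixed class pairs of the lamina propria, 10 of 48 gene and pair tests passed the filter on low counts, and 5 were called higher and 2 lower at an edgeR adjusted p under 0.05. Over all genes, 36.5% of lamina propria class tests were called, 18.7% higher and 17.8% lower. For Peyer's patches 12 of 56 passed and 6 were called higher and 1 lower, where 32.3% of all class tests were called, 16.1% higher and 16.2% lower. A gene that passed only through the class where it is high had to differ, and the classes were drawn from other genes of the same cells. These counts therefore support nothing further, and neither do the p-values of such class contrasts, above or below.

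**Figure D2:**
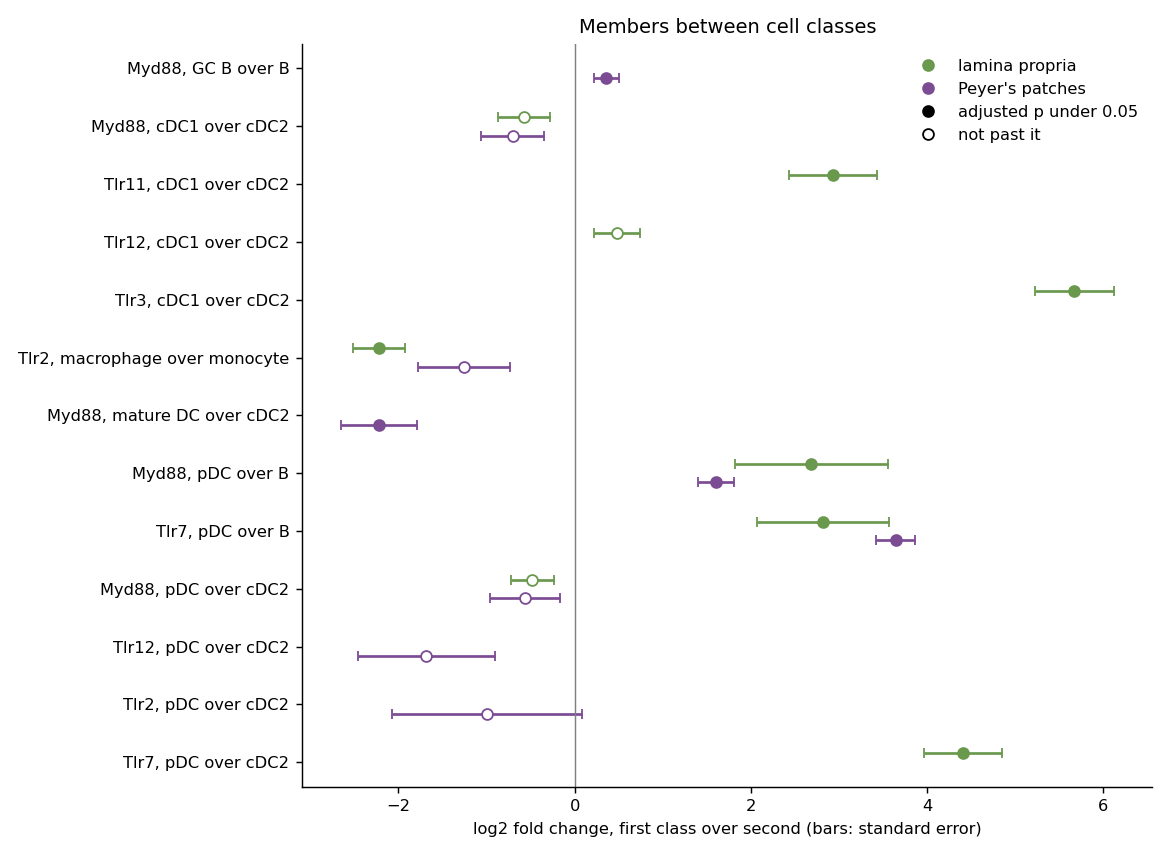
Log2 fold change of a gene between 2 cell classes, first class over second, with standard errors; green is the lamina propria, purple Peyer's patches, and filled points have an edgeR adjusted p under 0.05. Tlr3 in cDC1 over cDC2 and Tlr7 in pDC over cDC2 lie farthest to the right; contrasts with a class at 0 UMIs are given in the text and not drawn.

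Tlr3, the receptor for double-stranded RNA, was highest in cDC1, the dendritic cells that take up dying cells and present their antigens to CD8+ T cells. In lamina propria cDC1 it was at 105, 121 and 72.1 CPM in food allergy libraries 1 to 3, against 101, 64.3 and 78.9 CPM in control libraries 1 to 3. The conditions overlapped, and food allergy library 2 was the highest. The mean was 90.5 ± 22.1 CPM (SD, n = 6, from 440 UMIs). The next class, stromal cells, had 16.8 CPM from 2 UMIs in all, and no stromal sample reached the cDC1 range. In Peyer's patch cDC1 Tlr3 was at 84.6, 14.9 and 42.8 CPM in food allergy samples of dates 1, 4 and 5, against 46.2, 32.2 and 65.1 CPM in control samples. Stromal cells of Peyer's patches followed at 12.5 ± 3.21 CPM (SD, n = 6, from 18 UMIs), and the 2 classes overlapped at the low end. A Tlr3 UMI was present in 247 of 581 lamina propria cDC1 (42.5%) at a median of 8409 UMIs and in 91 of 284 Peyer's patch cDC1 (32.0%) at 10550 UMIs. None of 13092 T cells had one at a median of 2960 UMIs, which limits the share of T cells with a UMI to 0.0282% and does not limit the share that express the gene.

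cDC1 exceeded cDC2 for Tlr3 by 5.67 ± 0.45 log2 units in the lamina propria (SE, edgeR adjusted p = 1.59e-08), from 440 and 2 UMIs, a scaled ratio of 57.9 with a counting interval of 15.9 to 479. Peyer's patch cDC1 had 98 Tlr3 UMIs and cDC2 had 0 in the 2 samples with both, at least 6.54-fold higher in cDC1 against a floor of 3 UMIs (edgeR adjusted p = 0.0103). DESeq2 gave an adjusted p of 0.797 for that contrast. Tlr3 passed the filter there only through cDC1, so neither p-value adds support.

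Tlr11 had the same leading class. In lamina propria cDC1 it was at 48.6, 38.8 and 34.4 CPM in food allergy libraries, against 35.0, 29.5 and 29.3 CPM in control libraries. The ranges overlapped only in that food allergy library 3 lay just below control library 1. The mean over both conditions was 35.9 ± 7.17 CPM (SD, n = 6, from 173 UMIs). In Peyer's patch cDC1 it was at 84.6, 19.8 and 30.2 CPM in food allergy samples of dates 1, 4 and 5, against 54.4, 13.8 and 32.6 CPM in control samples. No other Peyer's patch class averaged more than 0.562 CPM. Lamina propria cDC1 exceeded cDC2 for Tlr11 by 2.93 ± 0.50 log2 units (SE, edgeR adjusted p = 0.000154), with 35.9 ± 7.17 CPM in cDC1 and 4.74 ± 6.70 CPM in cDC2 (n = 6 each). For Peyer's patches 58 UMIs in cDC1 stood against 0 in cDC2, at least 3.87-fold higher (edgeR adjusted p = 0.0224, DESeq2 adjusted p = 0.122). Tlr11 also passed the filter there only through cDC1, so neither p-value adds support.

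Tlr12, which binds the same ligand as Tlr11 in mice, was spread over more classes. In lamina propria macrophages it was at 61.3, 32.3 and 41.4 CPM in food allergy libraries, against 76.3, 47.8 and 71.6 CPM in control libraries. In lamina propria cDC1 it was at 47.4, 42.6 and 41.0 CPM in food allergy libraries, against 28.8, 53.8 and 42.0 CPM in control libraries. Macrophages (55.1 ± 17.4 CPM) and cDC1 (42.6 ± 8.27 CPM, n = 6 each) overlapped, with macrophages higher in 4 of 6 libraries. Lamina propria cDC2 averaged 33.1 ± 17 CPM and pDC 9.78 ± 3.61 CPM (SD, n = 6 each), and cells that passed the cDC2 marker gate had 18.5 CPM pooled. For Tlr12 the difference of cDC1 over cDC2 was 0.48 ± 0.27 log2 units (SE, edgeR adjusted p = 0.192), unlike the wide gaps of Tlr3 and Tlr11 in the same pair of classes. In Peyer's patch cDC1 it was at 8.46, 4.96 and 11.7 CPM in food allergy samples, against 19.0, 13.8 and 14.5 CPM in control samples. These ranges did not overlap but came from 36 UMIs in all, and Tlr12 did not pass the filter for a test of condition there. In the 2 Peyer's patch samples with both classes, cDC1 had 24 Tlr12 UMIs and cDC2 had 13. The scaled ratio of cDC1 over cDC2 was 0.370 there, with a counting interval of 0.181 to 0.791. In the lamina propria it was 1.32 (0.941 to 1.88). Tlr12 in Peyer's patch pDC averaged 4.18 ± 4.66 CPM (SD, n = 10) and was 9.04 CPM with all cells pooled, from 148 UMIs. Peyer's patch T cells averaged 3.26 ± 3.59 CPM (SD, n = 9) and had 2.00 CPM pooled, from 85 UMIs. The pDC samples without a Tlr12 UMI were 5 of 10, each of 10 to 29 cells.

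Co-detection was counted in cDC1, with doublets kept. Of 581 lamina propria cDC1, 131 had a Tlr11 UMI, 145 had a Tlr12 UMI and 47 had both. A Tlr12 UMI was present in 35.9% of cells with Tlr11, whose median depth was 10193 UMIs, and in 21.8% of cells without it, whose median depth was 7895 UMIs. Peyer's patch T cells had a Tlr11 UMI in 2 of 13092 cells and a Tlr12 UMI in 0.619%. Cells with Tlr11 were deeper, and the part of depth and of doublets in the co-detection was not tested. Over class means on the log2(CPM + 1) scale, Pearson's r between Tlr3 and Tlr11 was 0.702 over 16 lamina propria classes and 0.715 over 17 Peyer's patch classes. Between Tlr3 and Tlr12 it was 0.682 in the lamina propria and 0.283 in Peyer's patches. These points share libraries and depth.

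Tlr2, which recognises bacterial lipoproteins with Tlr1 or Tlr6, followed a different order, led by neutrophils and monocytes. Lamina propria neutrophils reached the minimum of 10 cells only in food allergy libraries, at 300, 455 and 493 CPM. Lamina propria monocytes had 180, 217 and 249 CPM in food allergy libraries, against 240 and 145 CPM in control libraries. Macrophages followed at 32.6 ± 14.4 CPM (SD, n = 6) and cDC2 at 17.1 ± 7.11 CPM (SD, n = 6), which was 5.28 CPM in the 60 cells that passed the cDC2 marker gate. The neutrophil, monocyte and macrophage ranges did not overlap in the lamina propria. Peyer's patch monocytes averaged 205 ± 68.7 CPM (SD, n = 4), neutrophils 165 ± 51.7 CPM (SD, n = 2) and macrophages 55.3 ± 56.9 CPM (SD, n = 5), with monocytes and neutrophils overlapping. Macrophages fell below monocytes for Tlr2 by 2.22 log2 units in the lamina propria (35.5 ± 14 CPM in macrophages and 206 ± 43.2 CPM in monocytes, n = 5 each, edgeR adjusted p = 5.44e-05). In Peyer's patches the same difference was -1.26 ± 0.52 (SE, edgeR adjusted p = 0.197). Tlr2 UMIs were present in 36.2% of lamina propria monocytes and 47.6% of Peyer's patch monocytes, and in 0.336% of Peyer's patch T cells.

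Tlr4, the lipopolysaccharide receptor, was low outside neutrophils and stromal cells. Lamina propria neutrophils had 90.1, 161 and 49.3 CPM in food allergy libraries from 10 UMIs in all, and stromal cells had 20.8 ± 5.00 CPM (SD, n = 3) from 6 UMIs. Among the other lamina propria classes with at least 2 samples none averaged above 7.01 CPM, and cDC1 had 0 UMIs. Germinal centre B cells, with 26 cells and 1 sample, had 7.52 CPM from 1 UMI. Peyer's patch neutrophils averaged 30.9 CPM from 3 UMIs and monocytes 8.29 CPM from 6. Germinal centre B cells held 58 Tlr4 UMIs in 1.70% of 3402 cells at a median of 6910 UMIs, against 0.199% of T cells at 2960 UMIs.

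Tlr9, the receptor for CpG DNA, was too shallow to order the classes. It had 7 UMIs in the 6 lamina propria nonTB libraries, of which 5 were in plasma cells and 1 in pDC. The Peyer's patch libraries had 115 UMIs, with 23 in pDC, 21 in T cells, 16 in germinal centre B cells and 15 in B cells. The pDC average was 1.03 ± 2.17 CPM (SD, n = 10), and a Tlr9 UMI was in 0.929% of Peyer's patch pDC at a median of 6608 UMIs and in 0.160% of T cells at 2960 UMIs. Differences between classes were not detectable at this depth in the lamina propria.

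Myd88 was read in nearly every class and highest in neutrophils, at 183 ± 74.9 CPM in the lamina propria (SD, n = 3) and 208 ± 61.4 CPM in Peyer's patches (SD, n = 2). No other class reached the neutrophil range in Peyer's patches. In lamina propria samples the lowest neutrophil library (98.7 CPM) lay below the highest monocyte (120 CPM) and cDC2 (102 CPM) libraries. Group 3 innate lymphoid cells (ILC3) followed in the lamina propria at 66.4 ± 24.2 CPM (SD, n = 6), and monocytes, cDC2, macrophages, pDC and cDC1 came between 64.4 and 35.0 CPM with overlapping ranges. Lamina propria plasma cells were low at 4.95 ± 0.783 CPM (SD, n = 6), and mature dendritic cells had 0 UMIs in both libraries with enough cells. Mature dendritic cells of Peyer's patches had 10.8 ± 4.71 CPM against 54.9 ± 16 CPM in cDC2 (n = 2 each), a fall by 2.22 log2 units (edgeR adjusted p = 0.0119). In the lamina propria the same classes had 0 and 45 UMIs, at least 3.66-fold lower in mature dendritic cells (edgeR adjusted p = 0.00542). Myd88 passed the filter there only through cDC2, so that p-value adds no support. In these samples mature dendritic cells had the least Myd88 of the dendritic classes in both tissues, from 25 cells in the lamina propria. With cells gated 1 by 1 on their markers, lamina propria mature dendritic cells had 19.7 CPM pooled, from 7 UMIs. Gated cDC1 had 31.1 CPM and gated cDC2 44.9 CPM.

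Myd88 also differed between pDC and B cells. In Peyer's patches it was 49.3 ± 17.7 CPM in pDC and 13 ± 4.07 CPM in B cells (n = 10 each), a log2 fold change of 1.6 ± 0.21 (SE, edgeR adjusted p = 4.70e-07). In the lamina propria 153 UMIs stood against 2, a log2 fold change of 2.69 ± 0.86 (SE, edgeR adjusted p = 0.00828), which was 0.0927 without food allergy library 3 and 0.261 with cells gated by markers one by one. Germinal centre B cells had 25.1 ± 10.6 CPM and other B cells 13.4 ± 4.34 CPM in Peyer's patches (n = 8 each), a log2 fold change of 0.36 ± 0.14 (SE, edgeR adjusted p = 0.0311). That call was lost in 7 of 15 alternatives, 6 of which left out 1 sample: control dates 1, 2, 3 or 5 or food allergy dates 2 or 3 (adjusted p up to 0.115). For pDC over cDC2 and cDC1 over cDC2, Myd88 differed by -0.48 ± 0.24 (edgeR adjusted p = 0.109) and -0.58 ± 0.29 log2 units (edgeR adjusted p = 0.154) in the lamina propria. Without food allergy library 3 those values passed, at adjusted p of 0.0194 and 0.0326. T cells of Peyer's patches had a Myd88 UMI in 7.53% of cells and pDC in 23.2%.

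The comparison of food allergy with control asked how the allergic reaction changes intestinal immune cells. None of the 8 genes was called in any class of either tissue in which condition could be fitted. In the lamina propria 10 of 48 gene and class tests passed the filter and 0 were called by edgeR, with 1 at an unadjusted p under 0.05; DESeq2 called 0, with 0 unadjusted. Over all genes in these classes 2.78% of tests were called. For Peyer's patches 7 of 56 passed and 0 were called by edgeR, with 0 at an unadjusted p under 0.05 and the same 0 and 0 by DESeq2, where 0.175% of all tests were called.

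**Figure D3:**
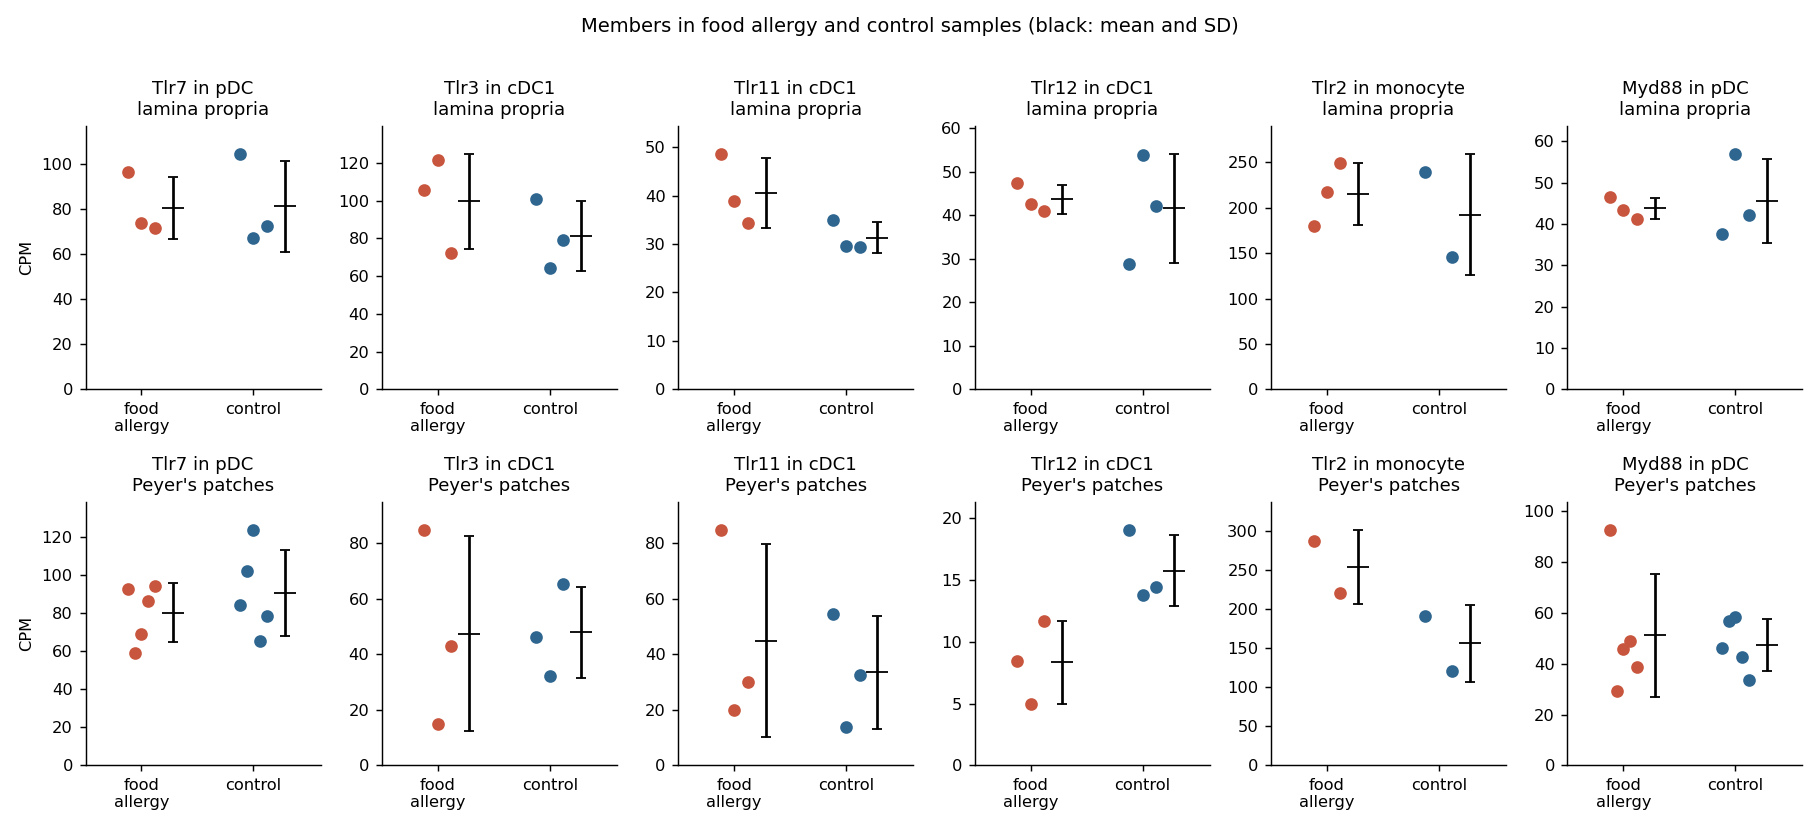
CPM of 6 gene and class pairs in food allergy (left of each panel, red) and control (right, blue), lamina propria above and Peyer's patches below; points are libraries or sums per date, black bars the mean and SD. The conditions overlap in each panel except Tlr12 in cDC1 and Tlr2 in monocytes of Peyer's patches. That Tlr2 difference was not called. Tlr11 and Tlr12 in Peyer's patch cDC1 did not pass the filter on low counts and were not tested.

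The estimates and their errors bound what was seen. In lamina propria pDC, Tlr7 averaged 80.5 ± 13.7 CPM in food allergy and 81.2 ± 20.2 CPM in control (SD, n = 3 each), a log2 fold change of 0.03 ± 0.19 (SE, edgeR adjusted p = 0.956). Myd88 in the same cells averaged 43.7 ± 2.57 CPM in food allergy and 45.6 ± 10.1 CPM in control, a log2 fold change of -0.03 ± 0.22 (edgeR adjusted p = 0.976). The conditions overlapped for both genes. In Peyer's patch pDC, Tlr7 averaged 80.2 ± 15.5 CPM in food allergy and 90.9 ± 22.7 CPM in control (SD, n = 5 each), with a date-adjusted log2 fold change of 0.11 ± 0.18 (edgeR adjusted p = 1.00). There the means and the fitted value differ in sign.

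In lamina propria cDC1 the receptor estimates were all above 0 and none was called. Tlr3 averaged 99.7 ± 25.2 CPM in food allergy and 81.4 ± 18.4 CPM in control (SD, n = 3 each), a log2 fold change of 0.29 ± 0.20 (edgeR adjusted p = 0.542). Tlr11 averaged 40.6 ± 7.25 CPM in food allergy and 31.3 ± 3.23 CPM in control, 0.40 ± 0.24 log2 units (edgeR adjusted p = 0.495), and Tlr12 averaged 43.7 ± 3.35 CPM in food allergy and 41.6 ± 12.5 CPM in control, 0.07 ± 0.24 log2 units (edgeR adjusted p = 0.953). Myd88 in cDC1 averaged 29.3 ± 6.10 CPM in food allergy and 40.7 ± 13.6 CPM in control, -0.37 ± 0.29 log2 units (edgeR adjusted p = 0.617). The single test at an unadjusted p under 0.05 was Myd88 in cDC2, with 41.5, 55.5 and 13.8 CPM in food allergy libraries, against 38.4, 102 and 67.9 CPM in control libraries. Its log2 fold change was -1.02 ± 0.47 (edgeR adjusted p = 0.471), and the ranges overlapped.

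With dendritic cells as 1 class, a grouping chosen after the data were seen, the lamina propria values stood further apart. Tlr3 was 64.1 ± 19.5 CPM in food allergy and 41.3 ± 7.08 CPM in control (SD, n = 3 each), 0.61 ± 0.21 log2 units (edgeR adjusted p = 0.122). Myd88 was 32.2 ± 0.672 CPM in food allergy and 50.2 ± 13.3 CPM in control, -0.58 ± 0.19 log2 units (edgeR adjusted p = 0.106), with ranges that did not overlap. Tlr12 was at 34.0 to 36.7 CPM in food allergy and 13.3 to 31.7 CPM in control, without overlap, 0.53 ± 0.25 log2 units (edgeR adjusted p = 0.282). None was called. The share of cDC1 in this class was 56.6, 61.5 and 46.8% in food allergy libraries 1 to 3, against 33.3, 36.5 and 50.7% in control libraries 1 to 3; its part in these values was not tested. Leaving out library 3 of either condition brought Tlr3 and Myd88 below the threshold. Tlr3 fell to an edgeR adjusted p of 0.000184 without control library 3 and 0.000443 without food allergy library 3. Myd88 fell to 0.0121 and 0.0145 in the same order. With date as a term, the library 3 that stayed was alone at its date. Both fits thus compared libraries 1 and 2 of each condition and are 1 result. Libraries 1 and 2 differed less from each other than from library 3. Their chi-square per degree of freedom was 4.46 in food allergy and 3.41 in control, and 36.9 to 49.2 against library 3. With no filter on low counts Tlr3 also passed, at 0.0248. The libraries numbered 3 were of another date than libraries 1 and 2. They are the control library with the highest and the food allergy library with the lowest cDC1 share. In this class 4.89% of all genes tested were called.

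In monocytes, Tlr2 averaged 215 ± 34.5 CPM in food allergy (n = 3) and 193 ± 66.8 CPM in control (n = 2) in the lamina propria, 0.46 ± 0.41 log2 units (SE, edgeR adjusted p = 0.680). In Peyer's patches it was at 287 and 220 CPM in food allergy, against 191 and 121 CPM in control, 0.71 ± 0.34 log2 units (SE, edgeR adjusted p = 0.661). The Peyer's patch ranges did not overlap, and the control values came from 22 UMIs. The summed level of the 7 neutrophil markers in lamina propria monocytes was 88.9 to 1472 CPM (median 1088) in food allergy and 0 to 36.4 CPM (median 18.2) in control, with 1 and 6 of the markers at 0; its part in the Tlr2 values was not tested. Tlr12 in lamina propria macrophages averaged 45.0 ± 14.8 CPM in food allergy and 65.3 ± 15.3 CPM in control (n = 3 each), -0.49 ± 0.40 log2 units (edgeR adjusted p = 0.591). Myd88 in lamina propria mast cells was at 49.2, 27.2 and 23.3 CPM in food allergy libraries, against 31.0, 24.6 and 0 CPM in control libraries from 3 UMIs, 1.10 ± 0.86 log2 units (edgeR adjusted p = 0.591).

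The 2 libraries labelled IgDLow, 1 per condition, were of the same date as nonTB library 3 of each condition. The labels do not say whether they came from the same animals. With 1 library per condition, the intervals of the IgDLow libraries are exact Poisson intervals that cover counting error only. Tlr3 in cDC1 was 128 CPM (104 to 157) in food allergy and 65.4 CPM (50.6 to 83.3) in control. Tlr7 in pDC was 73.2 CPM (48.3 to 107) in food allergy and 90.0 CPM (76.5 to 105) in control. Tlr11 in cDC1 was 25.6 CPM in food allergy and 25.8 CPM in control. Tlr12 in macrophages was 6.90 CPM (0.835 to 24.9) in food allergy and 45.1 CPM (25.2 to 74.3) in control. The Tlr3 and Tlr12 intervals did not overlap between these 2 libraries, while those of Tlr7 did. In the nonTB libraries of that date, Tlr3 in cDC1 was 72.1 CPM in food allergy and 78.9 CPM in control. Tlr12 in macrophages was lower in food allergy in those nonTB libraries too. In B cells, Tlr7 was 10.8 CPM in food allergy and 14.9 CPM in control, and Tlr9 had 0 UMIs in both.

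The comparison of the lamina propria with Peyer's patches was made in controls only, and tissue cannot be told apart in it from date and from whatever the label nonTB stands for. Among the fixed classes 7 of 48 tests passed the filter and 0 were called by edgeR, with 1 at an unadjusted p under 0.05; DESeq2 called 0, with 1 unadjusted. Of all tests in these classes 1.57% were called. Tlr7 in pDC averaged 81.2 ± 20.2 CPM in the lamina propria (n = 3) and 90.9 ± 22.7 CPM in Peyer's patches (n = 5), -0.11 ± 0.21 log2 units (edgeR adjusted p = 0.971). Tlr12 in cDC1 averaged 41.6 ± 12.5 CPM in the lamina propria and 15.8 ± 2.85 CPM in Peyer's patches (SD, n = 3 each), 1.33 ± 0.36 log2 units (edgeR adjusted p = 0.0625), without overlap. Tlr3 in cDC1 averaged 81.4 ± 18.4 CPM in the lamina propria and 47.9 ± 16.5 CPM in Peyer's patches, 0.55 ± 0.27 log2 units (edgeR adjusted p = 0.321). With samples of both conditions in the fit, both passed, at an edgeR adjusted p of 0.000175 for Tlr12 and 0.0286 for Tlr3.

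For dendritic cells as 1 class, both receptors were called higher in the lamina propria, where 9.95% of all genes were called. Tlr3 was 41.3 ± 7.08 CPM in the lamina propria (n = 3) and 16.7 ± 6.77 CPM in Peyer's patches (n = 4), 1.55 ± 0.28 log2 units (SE, edgeR adjusted p = 0.00505). Tlr12 was 24.3 ± 9.71 CPM in the lamina propria and 6.12 ± 5.46 CPM in Peyer's patches, 1.69 ± 0.43 log2 units (SE, edgeR adjusted p = 0.0287). The Tlr12 call was lost without lamina propria control library 2 (adjusted p = 0.124) or 3 (0.131), without Peyer's patch control date 5 (0.0956), and under the gate by markers (0.0930). The Tlr3 call was lost only under that gate (0.130) among the alternatives run. The share of cDC1 among these dendritic cells was 33.3, 36.5 and 50.7% in lamina propria control libraries 1 to 3, and 35.6, 18.2, 25.7 and 20.1% in the 4 Peyer's patch samples, and the part of this mix in the Tlr3 and Tlr12 values was not tested.

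The wider pathway was read from a list of 65 further genes, of which 64 were in the matrix. Totals are for the fixed classes: pDC, cDC1, cDC2, mature dendritic cells, macrophages, monocytes, mast cells and both B cell classes. In those of the lamina propria, 149 tests gave 8 higher and 8 lower in food allergy, with a median log2 fold change of -0.05. Of all tests in these classes 2.78% were called. Outside them, group 2 innate lymphoid cells had 3 higher and 6 lower, ILC3 0 and 5, and plasma cells 1 and 2. Natural killer or group 1 innate lymphoid cells had 1 and 1, and dendritic cells as 1 class 1 and 4. The fixed classes of Peyer's patches gave 172 tests, with 0 higher and 1 lower, where 0.175% of all tests were called. Outside them, ILC3 had 4 lower, natural killer or group 1 innate lymphoid cells 2 lower, and group 2 innate lymphoid cells 1 higher. Over the fixed classes of the lamina propria, transcription factors had 6 calls lower and 0 higher in 33 tests. Co-receptors and trafficking factors had 3 higher and 0 lower in 50, and kinases and ligases 0 in 25. Genes listed as brakes, among them the NF-kB cofactor Nfkbiz, had 2 higher and 1 lower in 27. Targets had 2 higher and 1 lower in 12.

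Irf7, the factor that carries the Tlr7 and Tlr9 signal to interferon genes in pDC, was called lower in 3 of the fixed lamina propria classes. It was not called in lamina propria cDC2, which also held Tlr12, or in monocytes, which also held Tlr7. In lamina propria pDC it was at 253, 219 and 174 CPM in food allergy libraries, against 715, 611 and 488 CPM in control libraries, a log2 fold change of -1.45 ± 0.10 (edgeR adjusted p = 4.01e-10). In cDC1 it was at 28.4, 41.3 and 41.0 CPM, against 148, 101 and 98.0 CPM in control libraries, -1.6 ± 0.22 (edgeR adjusted p = 0.000324). In macrophages it was at 94.8, 92.9 and 65.0 CPM, against 347, 389 and 200 CPM in control libraries, -1.81 ± 0.21 (edgeR adjusted p = 0.000258). Every food allergy library was below every control library in each of the 3 classes, while Tlr7 and Myd88 in the same pDC differed by 0.03 and -0.03 log2 units. In Peyer's patch pDC, Irf7 was 247 ± 87.9 CPM in food allergy and 318 ± 55.8 CPM in control (SD, n = 5 each) and was not called.

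**Figure D4:**
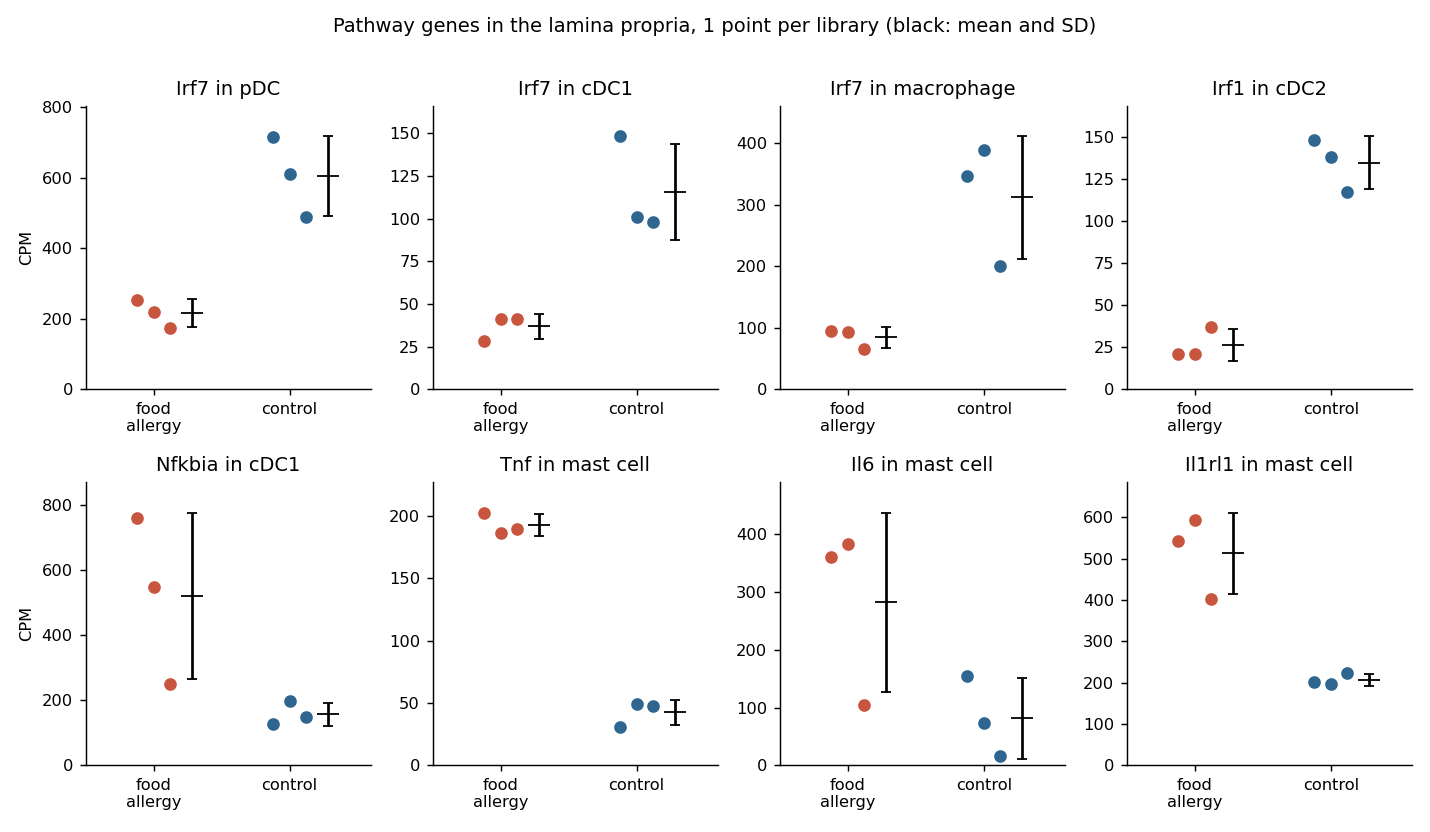
CPM of 8 pathway gene and class pairs in lamina propria libraries, food allergy (red) left of control (blue), with mean and SD in black. Irf7 and Irf1 points of food allergy lie below those of control, and the points of Nfkbia, Tnf and Il1rl1 lie above them; for Il6 the 2 conditions overlap.

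Related factors moved in the same direction with less support. Irf1, an interferon-induced factor, was at 20.8, 20.8 and 36.9 CPM in food allergy cDC2, against 148, 138 and 117 CPM in control cDC2 (-2.24 ± 0.37 log2 units, edgeR adjusted p = 0.0174). That call was lost without control library 1 (0.114) or food allergy libraries 1 (0.107) or 2 (0.0708), and at an adjusted p of 0.0717 with the replicate number as a block. In macrophages Irf1 was at 22.3, 28.3 and 41.4 CPM, against 118, 144 and 79.1 CPM in control (-1.80 ± 0.38, edgeR adjusted p = 0.0237). Irf8 in macrophages was at 201, 170 and 248 CPM, against 500, 383 and 396 CPM in control (-0.98 ± 0.20, edgeR adjusted p = 0.0207). The macrophage calls of Irf1 and Irf8 were lost without control libraries 1 (0.0747 and 0.0865) or 2 (0.143 and 0.0652) or food allergy library 2 (0.135 and 0.135).

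Genes listed as brakes and targets moved by class. Nfkbia, the NF-kB inhibitor that NF-kB itself induces, was at 761, 548 and 251 CPM in food allergy cDC1, against 128, 196 and 148 CPM in control cDC1, a log2 fold change of 1.6 ± 0.21 (edgeR adjusted p = 0.000234). In lamina propria mast cells Tnf was at 203, 186 and 189 CPM in food allergy, against 31.0, 49.1 and 47.7 CPM in control (2.45 ± 0.38, edgeR adjusted p = 0.000665). Il6 was at 360, 383 and 104 CPM, against 155, 73.7 and 15.9 CPM in control (1.96 ± 0.32, edgeR adjusted p = 0.00112). The mast cell ranges of Tnf did not overlap, and those of Il6 did. Control libraries held 12 to 23 mast cells each and food allergy libraries 186 to 317, so the control levels rest on 7 Tnf, 14 Il6 and 35 Il1rl1 UMIs. Il1rl1, the interleukin-33 receptor that signals through Myd88, was at 543, 593 and 403 CPM in food allergy mast cells, against 202, 197 and 223 CPM in control (1.53 ± 0.25, edgeR adjusted p = 0.00108). Nfkbiz, an inducible NF-kB cofactor, was at 823, 895 and 471 CPM in food allergy mast cells, against 481, 418 and 366 CPM in control (0.99 ± 0.23, edgeR adjusted p = 0.0151), a call lost without food allergy library 1 (0.129) or 2 (0.146). With no filter on low counts the mast cell calls of Tnf, Il6 and Il1rl1 were lost, at adjusted p of 0.246, 0.254 and 0.251.

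The remaining calls in the fixed classes were smaller or less steady. Ctsl, a protease that cleaves endosomal Toll-like receptors, was at 822, 808 and 970 CPM in food allergy pDC, against 607, 585 and 714 CPM in control pDC (0.49 ± 0.07, edgeR adjusted p = 8.81e-05). It was lost with no date term, at an adjusted p of 0.331. Hsp90b1, a chaperone that folds Toll-like receptors, was at 229, 272 and 266 CPM in food allergy cDC1, against 177, 179 and 173 CPM in control (0.57 ± 0.12, edgeR adjusted p = 0.0142); the call was lost without control libraries 1 (0.0679) or 2 (0.0776) or food allergy library 2 (0.0634). Its call in mast cells (1.23 ± 0.32, edgeR adjusted p = 0.0291) was lost without control library 1 (0.170) or any 1 of food allergy libraries 1 to 3 (0.184, 0.137 and 0.140). Il1b in monocytes was at 1864, 2134 and 1900 CPM in food allergy, against 3357 and 4896 CPM in control (-0.98 ± 0.18, edgeR adjusted p = 0.0184), and was lost without food allergy library 1 (0.399) or 2 (0.0893). The call of Nfkbiz in cDC2, 182 ± 28.2 CPM in food allergy and 388 ± 81.6 CPM in control (-1.06 ± 0.21, edgeR adjusted p = 0.0441), was lost on leaving out any 1 of the 6 libraries, with adjusted p between 0.0659 and 0.262. In the fixed classes of Peyer's patches the single call was Cxcl10 in macrophages. Its level was 25.8 ± 8.99 CPM in food allergy (n = 2) and 170 ± 181 CPM in control (n = 3), -2.87 ± 0.68 (edgeR adjusted p = 0.00532). The call was lost with DESeq2 (adjusted p = 0.999) and with doublets removed (0.932).

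Mast cell transcripts also moved with condition in other lamina propria classes. The summed level of the 11 mast cell markers was 49.6 to 95.3 CPM in food allergy pDC and 3.35 to 8.50 CPM in control pDC, with 0 and 6 of the 11 at 0. It was 80.6 to 100 CPM in food allergy cDC1 and 25.5 to 30.9 CPM in control cDC1, and 83.6 to 105 CPM in food allergy macrophages and 18.8 to 29.9 CPM in control macrophages, with 2 and 8 of the 11 at 0 in each. The 7 neutrophil markers summed to 245 to 290 CPM in food allergy macrophages and 62.4 to 158 CPM in control macrophages, with 1 and 3 of the 7 at 0. In mast cells themselves the mast cell sum was 64081 to 66919 CPM in food allergy and 20319 to 37253 CPM in control. The part of the mast cell and neutrophil transcripts in the pathway values was not tested.

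Between classes, 43 of 138 lamina propria tests of pathway genes were called higher and 49 lower, where 18.7% of all class tests were called higher and 17.8% lower. Irf8, a factor of pDC and cDC1 development, was at 2995 ± 303 CPM in pDC and 1569 ± 298 CPM in cDC1, against 270 ± 131 CPM in cDC2 (n = 6 each). Ctsl was at 751 ± 145 CPM in pDC and 29.0 ± 18.2 CPM in cDC2, and Cd36, a co-receptor of Tlr2, at 108 ± 18.6 CPM in cDC1 and 10.7 ± 4.99 CPM in cDC2. Nfkbiz ran the other way, at 25.9 ± 7.23 CPM in cDC1 and 285 ± 125 CPM in cDC2. Macrophages exceeded monocytes for Unc93b1, the chaperone that brings nucleic acid receptors to endosomes, with 791 ± 55.3 CPM in macrophages and 559 ± 119 CPM in monocytes (n = 5 each, 0.71 ± 0.14, edgeR adjusted p = 0.00184). Irf7 in Peyer's patches was 282 ± 78.7 CPM in pDC and 14.7 ± 9.10 CPM in B cells (n = 10 each), alongside the higher Tlr7 and Myd88 of pDC. Germinal centre B cells had 166 ± 28 CPM of Unc93b1 and other B cells 293 ± 29.3 CPM (n = 8 each, -1.04 ± 0.08, edgeR adjusted p = 2.56e-11). Mature dendritic cells of Peyer's patches, low in Myd88, had 2441 ± 138 CPM of Ccl5 and 77.4 ± 21.5 CPM of Il12b, against 40.7 ± 4.07 CPM and 2.36 ± 3.34 CPM in cDC2 (n = 2 each).

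Between tissues, 119 pathway tests in the fixed classes of controls gave 1 higher and 3 lower in the lamina propria. Of all tests in these classes 1.57% were called. Nfkbia in cDC1 was 157 ± 35.3 CPM in the lamina propria and 443 ± 53.8 CPM in Peyer's patches (n = 3 each), -1.59 ± 0.20 log2 units (edgeR adjusted p = 0.00135). Lgmn, a protease of endosomes, in macrophages was 1173 ± 207 CPM in the lamina propria and 330 ± 115 CPM in Peyer's patches (n = 3 each), 1.82 ± 0.33 (edgeR adjusted p = 0.0246), a call lost without lamina propria control libraries 1 (0.126) or 2 (0.0942). Ccl5 was lower in lamina propria macrophages (49.2 ± 30.6 CPM, against 428 ± 356 CPM in Peyer's patches, edgeR adjusted p = 0.0278) and pDC (7.11 ± 0.919 CPM, against 46.1 ± 41.2 CPM in Peyer's patches, edgeR adjusted p = 0.0485). The macrophage call was lost without lamina propria control libraries 1 (0.126) or 2 (0.138), and the pDC call without any 1 of the 3 (0.367, 0.403 and 0.110) or without Peyer's patch date 2 (0.0604).

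The genes whose class pattern was most like each receptor's were taken by Pearson's r over class means of log2(CPM + 1), 16 classes in the lamina propria and 17 in Peyer's patches, from genes reaching 20 CPM in a class. For Tlr11 in Peyer's patches they were Cd207 (0.997), Sept3 (0.976) and Xcr1 (0.975), of which Cd207 encodes langerin and Xcr1 the chemokine receptor that defines cDC1; Xcr1 was also a marker used to name that class. In the lamina propria they were Vwf (0.906), Gatm (0.852) and Ocstamp (0.850). For Tlr3 Fam149a was among the 3 nearest in both tissues (0.864 and 0.857), behind Sult1a1 (0.891) in the lamina propria and P3h2 (0.958) in Peyer's patches. Tlr7 was nearest to Pfkfb4 (0.836) and to Adssl1 (0.816). Tlr2 was nearest to Abcd2 (0.948) and to Gm5150 (0.956), and Tlr12 to 2310040G24Rik (0.861) and to Ccdc102a (0.859). Myd88 was nearest to Ptpre (0.943) and to Bnip3 (0.83), and Tlr4 to Acta2 (0.890) and to Ifit3b (0.897). Tlr9 reached 20 CPM in no class and was not compared. These values describe class means that share libraries.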

How the data were processed

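The deposited file held counts of unique molecular identifiers per gene and cell; the reads had been processed with Cell Ranger on mm10, per the submitters' processing notes, whose versions are not given in the sources used here. All 27 single-cell libraries in the matrix were used, and 1 Peyer's patch food allergy library named in the labels was not analysed here. The deposited bulk ILC2 estimated counts were not used.

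Cells (lowest depth 501 UMIs) were normalised to 10000 UMIs, reduced to 2500 genes without the 8 genes or their pathway genes and 40 components, and clustered by the Leiden method (resolution 1.5, 20 neighbours) into 39 clusters; mixed myeloid clusters were clustered again, a step chosen after seeing the data. A cluster was named when at least 3 markers passed a 3-fold excess and a share of 10% of cells; 2474 cells (4.26%) stayed unnamed. The 1170 cells called doublets (2.01%) were kept. Of 55713 barcodes, 2180 occurred in several libraries, at most 7.69% of the smaller of 2 libraries, with the highest sharing among Peyer's patch libraries of date 2; leaving that date out left 0 condition calls among the 8 genes.

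UMIs were summed per class and library (lamina propria) or per class, date and condition (Peyer's patches), with at least 10 cells. The main test was edgeR 4.0.16 quasi-likelihood (TMM, filterByExpr, Benjamini-Hochberg over all genes tested in a class, threshold 0.05) with date and condition as terms; class contrasts were blocked by sample. On simulated counts with a fixed dispersion and no date effect, the condition test missed many 2-fold changes. It recovered 30.9% of them in lamina propria pDC, 32.7% in lamina propria cDC1 and 52.5% in Peyer's patch pDC. For 4-fold changes it recovered 97%, 96.7% and 100%. Alternatives were DESeq2 1.42.0, other filters, a marker gate per cell, and leaving out samples. Floors used 3 UMIs, and intervals 95%.

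The 8 genes, the pathway list, the class pairs and the tests were chosen with earlier results of these data known. Named pathway genes were up to 5 called per comparison and fixed class, those with the smallest adjusted p.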

Additional observations from a re-analysis of the deposited data

Results flagged for a closer look

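Of 33 groups of 4 to 10 samples tested for 1 sample far from the others, 3 were flagged, and chance flags about 1 in 20 groups. Tlr7 in lamina propria pDC stood apart in food allergy library 1, at 96.3 CPM, among the 4 libraries that also held enough B cells. Myd88 in lamina propria B cells stood apart in food allergy library 3, at 7.18 CPM, and it was the only one of those 4 libraries with a Myd88 UMI in B cells. Myd88 in Peyer's patch pDC stood apart in the food allergy sample of date 1, at 92.6 CPM.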

How the results depend on the processing

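None of the 8 genes was called between conditions in the fixed classes of either tissue in any alternative run, including the lamina propria fit with the replicate number as a block (0 called) and Peyer's patch libraries with a block of date and position (0 called). Libraries with the same number did not deviate together (correlations of -0.00097 to 0.033), so the numbers were not taken as pairs. Between tissues, 0 tests were called in the fit reported, 1 with no filter on low counts, 2 with samples of both conditions, and 0 to 1 on leaving out 1 sample (1 without Peyer's patch control date 4). Lamina propria class contrasts gave 7 calls in the fit reported, 16 with no filter (43 tests) and 4 with the marker gate. Peyer's patches gave 7 calls in the fit reported, 2 with DESeq2, 13 with no filter (50 tests), 9 at Leiden resolution 1.0, 2 with the marker gate (2 of 7 pairs fitted, with 2 calls in the fit reported), 4 with at least 20 cells per sample (3 of 7 pairs fitted, with 3 calls in the fit reported), and 2 to 7 on leaving out 1 sample (2 without control date 5 and 3 without food allergy date 5, where the 3 contrasts with cDC2 could not be fitted). The pathway gene Nfkbia in cDC1 over cDC2 of Peyer's patches changed sign at Leiden resolution 1.0, to 0.0109 log2 units. Tlr12 in lamina propria cDC1 over cDC2 was called at that resolution (edgeR adjusted p = 0.00933). Apart from tests added without the filter and contrasts that could not be fitted, the cause of these changes was not tested. Condition was not fitted for Peyer's patch cDC2, mature dendritic cells and neutrophils, which had too few samples. The same held in the lamina propria for mature dendritic cells, B cells, germinal centre B cells, neutrophils, T cells, stromal cells and epithelial cells. Depth limited Tlr9 most, at 7 UMIs in the lamina propria nonTB libraries.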
